A study of Mus musculus with 8 samples.

Results

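The comparison described here is the change between early and prolonged inhibition within cells given BRM014, taken as the libraries collected at 30 h against those collected at 6 h. Its members were chosen by their labels alone: 4 of the 8 RNA-seq libraries of the series, 2 at each time. The cells were NMuMG, a normal mouse mammary gland epithelial line of wild-type genotype, grown in serum and insulin to subconfluence. The other 4 libraries came from the same line kept in the vehicle DMSO for 6 h or 30 h, 2 libraries at each time, and served as the measure of what time alone does in this culture. The labels used here state no dose. The libraries of a group are called biological replicates, but nothing says that they came from separate cultures, so the p-values measure the spread between these libraries, which may be technical.

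BRM014 is an allosteric inhibitor of the ATPase of BRG1 (gene Smarca4) and BRM (gene Smarca2), the alternative motors of the SWI/SNF, or BAF, chromatin remodelling complexes. These complexes slide and evict nucleosomes at enhancers and promoters and keep them open to transcription factors such as AP-1 and TEAD. When the motor stops, accessible sites can close within minutes to hours. Cells sampled later also carry secondary changes, such as altered cell cycle, stress and inflammatory programmes.

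The libraries held between 17859693 and 29955366 counted reads, and 11835 of the 21240 genes in the table had enough counts to be tested. The replicates of a group correlated at 0.990 to 0.994 (Pearson, log2 CPM). Among the 4 BRM014 libraries, the first principal component carried 81.1% of the variance and separated 30 h from 6 h. Levels are given as CPM, counts scaled to a common effective library size by TMM, with replicate 1 before replicate 2. Changes are log2 fold changes with an approximate standard error (SE). This SE is the size of the change divided by the square root of the F statistic of its test. A gene is called when its adjusted p was below 0.05. The labelled cell type was checked on 7 mammary epithelial markers. Cdh1, Krt8 and Krt18 were abundant in every library, whereas Epcam and Cldn7 had no count in any of the 8. Krt7 and Esrp1 were also near the floor, with at most 9 counts and 1 count in a library. Most of the summed level of the 7 epithelial markers thus came from Krt8 and Krt18. The summed level of the markers was 4360 to 8000 CPM, against at most 2.72 CPM for 8 fibroblast markers, 0.26 CPM for 7 endothelial markers, 8.11 CPM for 8 immune markers, 9.46 CPM for 6 adipocyte markers and 2.57 CPM for 6 neuronal and glial markers. These are bulk cultures, so fewer cells with a transcript and less of it per cell cannot be told apart.

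Between 6 h and 30 h of BRM014, 2318 genes rose and 1999 fell, which is 19.6% and 16.9% of the genes tested. Most of these changes were small: 78.3% of the called genes changed by less than 2-fold. Among larger changes, rises outnumbered falls, with 763 genes up and 175 down by at least 2-fold (6.45% and 1.48% of the genes tested), and 194 up and 58 down by at least 4-fold. The median change over all genes tested was 0.01. In 2316 of the 2318 genes called higher, both 30 h libraries lay above both 6 h libraries, and in all 1999 called lower they lay below. Over all 11835 genes tested, 4351 lay above in this way and 4126 below, so with 2 libraries a group this adds little to the calls. The counts depend on single libraries: without BRM014 6 h replicate 1 the test called 1229 genes higher and 998 lower, without BRM014 6 h replicate 2 it called 1237 lower, and without BRM014 30 h replicate 1 it called 1262 lower. With counts scaled to ribosomal protein genes, which adds 0.26 to the median of all genes, 4068 genes were higher and 534 lower.

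Vehicle-treated cells also changed with time. In DMSO, 2133 genes rose and 2034 fell between 6 h and 30 h, or 18.0% and 17.2% of the genes tested, of which 596 and 247 changed by at least 2-fold (5.04% and 2.09%). Without DMSO 6 h replicate 1 the DMSO counts of called genes were 1293 and 1038. The 2 time courses share no library, so their calls can be set side by side. Of the genes that rose under BRM014, 51.0% also rose in DMSO, and these made up 55.4% of the DMSO rises. Of the genes that fell under BRM014, 56.0% also fell in DMSO, and these made up 55.0% of the DMSO falls. The test of the difference, the BRM014 change minus the DMSO change, called 460 genes above 0 and 306 below 0 (3.89% and 2.59% of the genes tested, together 6.47%), of which 205 and 153 differed by at least 2-fold (1.73% and 1.29%). Leaving out 1 library lowered these counts to as few as 200 (DMSO 6 h replicate 1) and 130 (BRM014 6 h replicate 2), and the median SE of this difference was 0.18. Among the genes with a difference were 95 that rose under BRM014 and fell in DMSO, and 52 that fell under BRM014 and rose in DMSO. The 95 became 43 when DMSO 6 h replicate 1 was left out and 54 or 55 when a BRM014 6 h library was. The 52 became 31 on leaving out BRM014 6 h replicate 2.

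**Figure D1:**
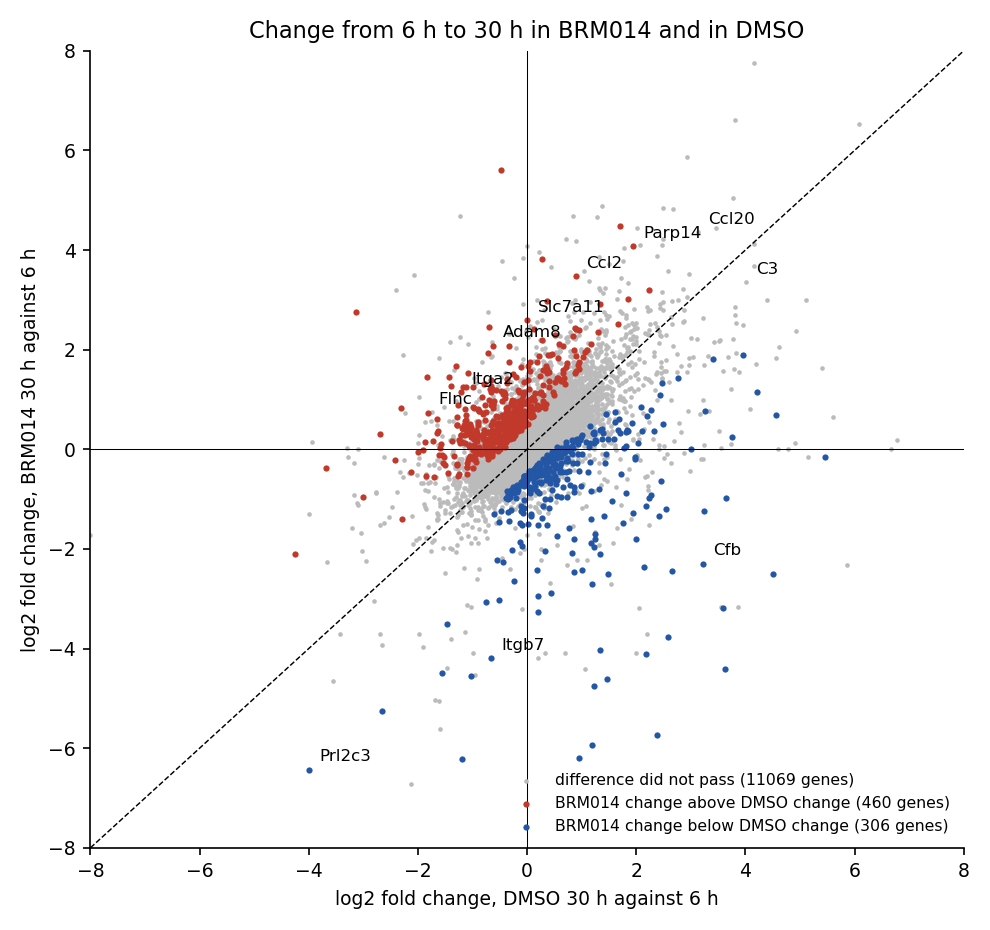
Change of each tested gene from 6 h to 30 h (log2 fold change) in DMSO on the x axis and in BRM014 on the y axis; the dashed line marks equal change, and Serpinb2 and Il24 lie outside the axes. Red points are the 460 genes whose change under BRM014 lay above that in DMSO by the test of the difference, blue points the 306 below, and grey points the genes that did not pass.

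The 10 largest called rises among genes with a mean log2 CPM of at least 2 included the chemokines Ccl2, Ccl20 and Cxcl10 and complement C3. Ccl2, the chemokine that recruits monocytes, measured 20.3 and 30.3 CPM at 6 h of BRM014 and 310 and 256 CPM at 30 h. The groups did not overlap, and the change was 3.48 (SE 0.18, adjusted p = 1.3e-07). In DMSO, Ccl2 measured 278 and 308 CPM at 6 h and 602 and 489 CPM at 30 h, a rise of 0.90 (SE 0.16), and the difference between the changes was 2.58 (SE 0.23, adjusted p = 3.9e-05). The 30 h level under BRM014 thus stood near the 6 h level of vehicle-treated cells and below their 30 h level.

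Ccl20, the ligand of CCR6, went from 0.718 and 1.83 CPM to 30.6 and 23.9 CPM (4.36, SE 0.29), and rose in DMSO as well (3.13, SE 0.28); the difference did not pass (adjusted p = 0.11). Cxcl10, an interferon-induced chemokine, went from 1.64 and 4.31 CPM to 31.6 and 40.6 CPM under BRM014. Its DMSO libraries held at most 1.44 CPM. Its DMSO change of 2.58 (SE 0.76) was called, though not without either DMSO 6 h library or DMSO 30 h replicate 2 (adjusted p = 0.0501 to 0.132), and the difference did not pass (adjusted p = 0.65). Complement C3 rose from 2.36 and 3.84 CPM to 25.6 and 38.3 CPM, while in DMSO it went from 6.25 and 9.46 CPM to 116 and 137 CPM. C3 thus rose in both arms, with a BRM014 change of 3.35 (SE 0.25) and a DMSO change of 4.01 (SE 0.23). Parp14, an ADP-ribosyltransferase of the interferon response, moved from 1.13 and 1.02 CPM to 17.9 and 18.5 CPM, which was 2.14 (SE 0.38, adjusted p = 0.0048) above its change in DMSO. Bmf, a pro-apoptotic BH3-only protein, rose by 3.20 (SE 0.20), Neurl3, a ubiquitin ligase, by 3.02 (SE 0.23), C1qtnf6, a C1q-like secreted protein, by 2.96 (SE 0.30), Birc3, an inhibitor of apoptosis and NF-kB target, by 2.92 (SE 0.27) and Tcn2, the vitamin B12 carrier, by 2.80 (SE 0.26). In DMSO these 5 genes changed by 1.33 to 2.49, and the rise of Birc3 there lost its call without DMSO 6 h replicate 1.

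The 10 largest called falls, by the same limits, included Itgb7, Lgals2, Id2 and Apob. Itgb7, the integrin beta 7 chain, measured 41.2 and 35.2 CPM at 6 h of BRM014 and 3.05 and 1.40 CPM at 30 h (-4.20, SE 0.23, adjusted p = 1.6e-07). In DMSO it measured 269 and 242 CPM at 6 h and 176 and 146 CPM at 30 h, so its BRM014 levels were below every DMSO library at both times, and the difference between the changes was -3.53 (SE 0.28). Lgals2, a galectin, went from 273 and 316 CPM to 55.2 and 54.5 CPM, a change of -2.43 (SE 0.12), whereas in DMSO it measured 448 to 580 CPM with no called change (0.17, SE 0.11). Id2, an inhibitor of basic helix-loop-helix factors and a BMP target, went from 195 and 244 CPM to 48.9 and 42.7 CPM (-2.27, SE 0.13), with a change in DMSO of -0.44 (SE 0.12) and a difference of -1.82 (SE 0.17).

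Ces2g, a carboxylesterase, fell under BRM014 from 11.8 and 10.2 CPM to 2.46 and 1.66 CPM and rose in DMSO from 25.7 and 30.6 CPM to 52.5 and 49.5 CPM. Its difference was -3.32 (SE 0.25, adjusted p = 1.4e-05). Apob, the lipoprotein scaffold, fell by 3.51 (SE 0.37), S100g, the calcium buffer calbindin-D9k, by 3.02 (SE 0.33), Fam19a5, a secreted chemokine-like protein, by 2.23 (SE 0.23) and Lce1g, a late cornified envelope gene, by 2.10 (SE 0.35). Lce1g fell further in DMSO, by 4.25 (SE 0.43). The prolactin-family genes Prl2c3 (109 and 85.2 CPM, then 2.03 and 0.521 CPM) and Prl2c2 (136 and 117 CPM, then 2.89 and 3.58 CPM) also fell, but they are near-identical copies between which reads may have been split, so their separate values are uncertain.

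**Figure D2:**
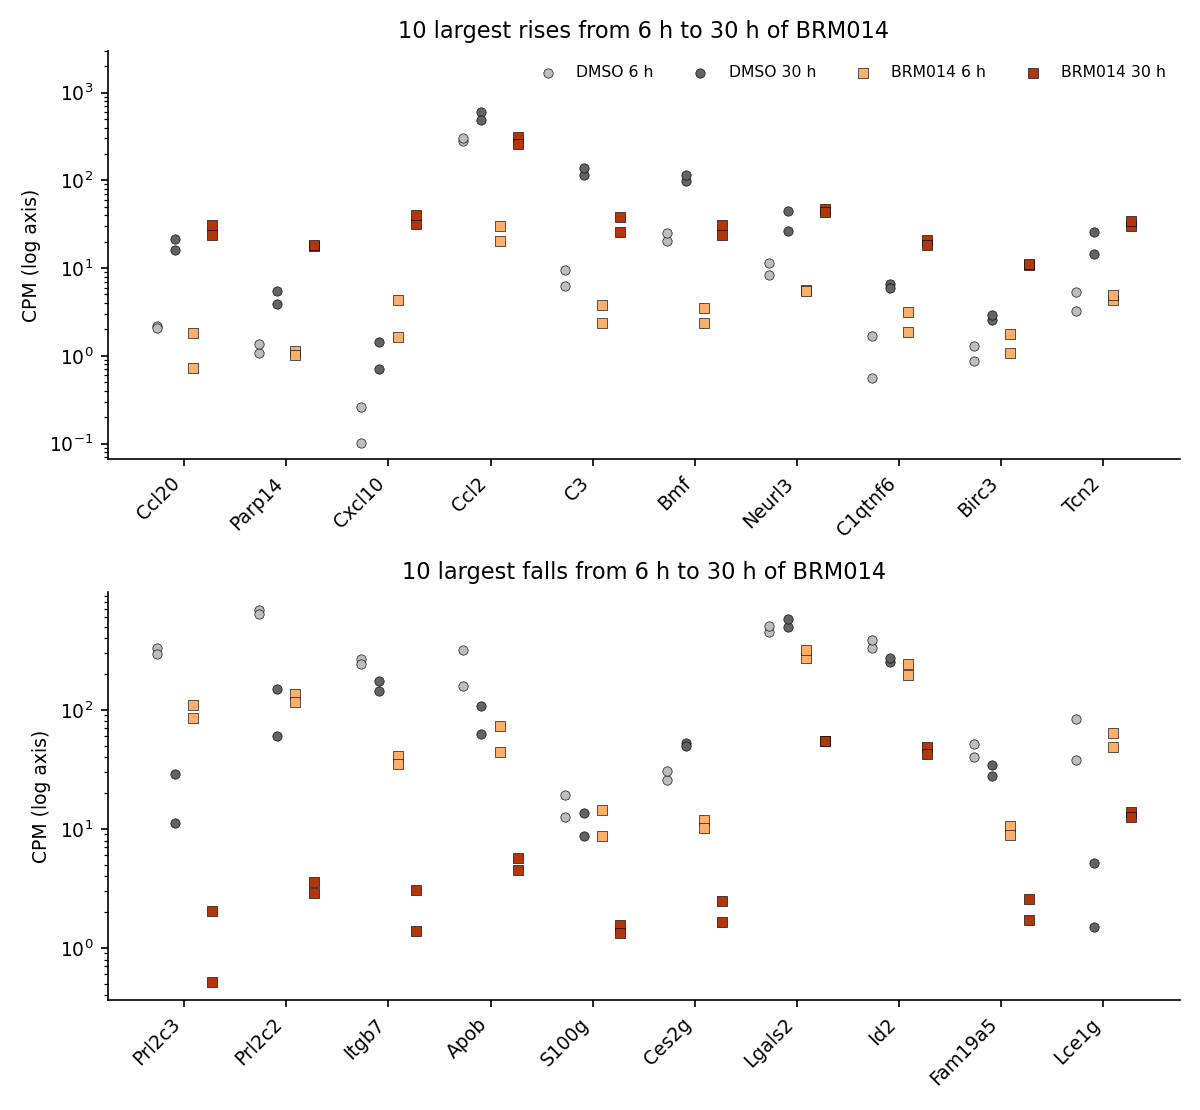
Level of the 10 genes with the largest called rises (top) and falls (bottom) from 6 h to 30 h of BRM014, in CPM on a log axis; each point is 1 library, circles are DMSO and squares BRM014, with the lighter shade for 6 h. In every gene the BRM014 30 h squares lie apart from the BRM014 6 h squares. For example, every DMSO circle lies above every BRM014 square in Itgb7, Lgals2 and Ces2g and below every one in Cxcl10.

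Ranked by the difference between the time courses with the same limit on the mean, the genes furthest above 0 included Tnfaip2, a TNF-induced gene, and Adam8, a membrane metalloprotease. Tnfaip2 measured 0.924 and 2.05 CPM at 6 h of BRM014, 7.97 and 8.60 CPM at 30 h, 18.1 and 14.1 CPM at 6 h of DMSO and 11.7 and 8.31 CPM at 30 h (difference 3.14, SE 0.39). Adam8 went from 12.5 and 16.5 CPM to 62.0 and 61.4 CPM under BRM014 and lay between 10.1 and 22.3 CPM in DMSO (difference 2.71, SE 0.28, adjusted p = 0.00012). For Adam8, unlike Tnfaip2, the 30 h libraries of BRM014 stood above all 4 vehicle libraries. Slc7a11, the cystine importer of the xCT system, rose by 2.60 (SE 0.28) from 1.64 and 1.79 CPM, a level below all 4 vehicle libraries (11.1 to 14.4 CPM), and its change in DMSO was 0.00 (SE 0.23). Dhrs9, a retinol dehydrogenase, rose by 1.26 (SE 0.23), beside a change of -1.12 (SE 0.26) in DMSO. Flnc, the actin crosslinker filamin C, measured 130 and 118 CPM and then 165 and 248 CPM under BRM014, and 260 and 215 CPM and then 73.9 and 61.6 CPM in DMSO (difference 2.55, SE 0.23). Its rise under BRM014 of 0.74 (SE 0.16) lost its call without BRM014 30 h replicate 2 (adjusted p = 0.055).

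Among genes with a mean log2 CPM of at least 2 over the 8 libraries, those furthest below 0, beside Itgb7 and Ces2g, were Tnnt2, Mmp13, Habp2 and Pilra. Cfb, described with the complement genes, had a lower mean and lay further below. Tnnt2, cardiac troponin T, went from 8.11 and 7.29 CPM to 0.321 and 0.326 CPM. Mmp13, a collagenase and a well-studied AP-1 target, went from 3.18 and 2.73 CPM to 0.214 and 0.358 CPM, while DMSO libraries held 25.2 to 38.7 CPM with no called change (0.20, SE 0.19; difference -3.46, SE 0.45). Pilra, an immune-type receptor, fell by 2.42 (SE 0.36) and rose in DMSO by 1.01 (SE 0.18). Habp2, a hyaluronan-binding serine protease, fell by 2.09 (SE 0.51), a call that was lost without BRM014 30 h replicate 2 (adjusted p = 0.062).

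The stretch just before the RefSeq start of Mmp13 (GRCm38.p6, chr9:7272364-7272513, plus strand) holds the letters of an AP-1 element, TGANTCA, in capitals here. It is shown because AP-1 sites are among those at which SWI/SNF is known to act.
Mmp13: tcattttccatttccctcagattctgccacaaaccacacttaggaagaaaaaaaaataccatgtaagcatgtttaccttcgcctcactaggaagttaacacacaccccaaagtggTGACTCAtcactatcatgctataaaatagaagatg
On either strand, TGANTCA was present in 18.7% of 139 windows of the genes that fell by at least 2-fold, in 8.30% of 771 windows of those that rose by at least 2-fold and in 5.35% of 12028 windows of all tested genes. Each window ran from 250 bases before to 50 bases after a start. The median GC content of these windows was 54.3%, 58.7% and 61.0%, and its part in the shares was not tested. Over all 32851 RefSeq windows, with a median GC content of 52.7%, the share was 7.81%. The 139 windows came from 114 of the 175 genes that fell by at least 2-fold, so some genes count more than once.

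The counts of each gene list below stand beside the shares over all genes tested. Of all genes tested, 19.6% rose and 16.9% fell under BRM014, and 18.0% and 17.2% in DMSO. For the difference, 3.89% were called above 0 and 2.59% below. Genes of the interferon response rose together with time under BRM014. Of 37 listed genes 27 were tested, and 21 of them rose and 0 fell, with a median change of 1.57. In DMSO 18 rose and 0 fell, with a median of 0.93, or 0.87 with Isg15, which was at 0 in a group, set at its bound. The difference was called above 0 for 5 and below 0 for 1, and the 5 became 2 without either 6 h library of either arm or without BRM014 30 h replicate 2. Several members had few counts at 6 h and were tested because of their 30 h level: with a minimum of 1 CPM in 4 libraries 12 rose. Irf1, a transcription factor that drives antigen presentation genes, measured 37.9 and 49.6 CPM at 6 h and 145 and 186 CPM at 30 h of BRM014, against 33.8 to 51.9 CPM over the 4 vehicle libraries. Its change of 1.92 (SE 0.15) was 1.46 (SE 0.21, adjusted p = 0.001) above that in DMSO.

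Gbp2, an interferon-induced GTPase, went from 0.770 and 0.810 CPM to 17.4 and 18.4 CPM under BRM014 and did not exceed 1.58 CPM in DMSO. Its difference of 2.78 (SE 0.66, adjusted p = 0.024) passed, but not without either 6 h library of either arm or without BRM014 30 h replicate 2 (adjusted p = 0.057 to 0.23). Isg15, a ubiquitin-like interferon-stimulated protein named here after its values were seen, had 0 counts at 6 h of BRM014 and 61 over both libraries at 30 h, at least 17.7-fold higher when 3 counts over the group are taken as the floor. Stat2 and Irf9, signal transducers of the list named after their values were seen, did not pass the test, with values of 0.25 (SE 0.20) and 0.41 (SE 0.19).

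Upstream stretches of Gbp2 and Irf1 are printed because they carry the letters of the elements through which interferon factors are known to act: an interferon-stimulated response element core (TTTC and TTTC again, with NN between them) in Gbp2 (GRCm38.p6, chr3:142620513-142620662, plus strand) and a gamma-activated site (TTCNNNGAA) in Irf1 (chr11:53769864-53770013, plus strand). Both are from RefSeq and end at the base before the annotated start, with the matches in capitals.
Gbp2: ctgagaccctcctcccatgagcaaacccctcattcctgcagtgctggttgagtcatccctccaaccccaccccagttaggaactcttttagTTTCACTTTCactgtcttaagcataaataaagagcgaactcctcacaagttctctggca
Irf1: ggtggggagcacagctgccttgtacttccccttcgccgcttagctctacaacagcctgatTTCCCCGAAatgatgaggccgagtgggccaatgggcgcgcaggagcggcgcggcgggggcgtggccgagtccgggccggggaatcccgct
The response element core, on either strand, was in 13 of 26 interferon list windows and in 2.74% of windows of all tested genes. The gamma-activated site was in 26.9% and 6.74%. The list gathers interferon response genes, so these shares describe its members and not their change. In genes that rose or fell by at least 2-fold under BRM014, the core was in 5.32% and 5.04% of windows. The gamma-activated site was in 8.17% and 7.91% of them.

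Transcripts of MHC class I antigen presentation genes rose as well: of 22 listed genes 17 were tested, 15 rose and 0 fell (median 1.42), against 8 and 0 in DMSO (median 0.70). The heavy chain gene H2-K1 measured 16.2 and 15.8 CPM at 6 h and 61.5 and 63.0 CPM at 30 h of BRM014, and 30.5 to 35.9 CPM at 30 h of DMSO. H2-D1 went from 25.4 and 26.8 CPM to 92.0 and 98.9 CPM. Both rises exceeded those in DMSO, by 0.90 (SE 0.17, adjusted p = 0.0064) and 0.98 (SE 0.14, adjusted p = 0.0014). Tapbp, the tapasin that loads peptides, rose by 2.09 (SE 0.16) and by 1.77 (SE 0.16) in DMSO, with no called difference. For the list, 5 differences were above 0, or 3 without DMSO 6 h replicate 1, DMSO 30 h replicate 2 or either BRM014 6 h library.

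In the list of NF-kB genes and chemokines, 24 of 29 were tested, 15 rose and 1 fell (median 1.05), against 13 and 5 in DMSO (median 0.35). The difference was above 0 for 7 and below 0 for none, and for 4 without the least favourable library (DMSO 6 h replicate 1, BRM014 6 h replicate 1 or BRM014 30 h replicate 2). Cxcl5, a neutrophil chemokine, went from 31.5 and 34.5 CPM to 189 and 188 CPM (2.52, SE 0.13), below its DMSO 30 h level of 441 and 345 CPM. Il1rn, the interleukin 1 receptor antagonist, fell from 1.90 and 0.853 CPM to 0.749 and 0.326 CPM (-1.43, SE 0.47), and leaving out BRM014 6 h replicate 1 or BRM014 30 h replicate 2 ended this call (adjusted p = 0.32 and 0.28).

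Complement and acute phase genes rose in both arms: 7 of 11 tested (20 listed) rose and 1 fell under BRM014, with a median of 1.76, and 9 rose in DMSO, with a median of 2.46. Ceruloplasmin (Cp) went from 23.7 and 24.7 CPM to 73.8 and 112 CPM under BRM014, and from 96.1 and 105 CPM to 459 and 553 CPM in DMSO. C1ra, a complement protease, rose by 1.65 (SE 0.22) and by 2.46 (SE 0.22). The exception was Cfb, the alternative pathway protease factor B. It measured 0.975 and 1.24 CPM at 6 h and 0.161 and 0.261 CPM at 30 h of BRM014, whereas in DMSO it went from 3.35 and 4.26 CPM to 30.1 and 41.0 CPM. Its difference of -5.52 (SE 0.48, adjusted p = 3.9e-05) was larger than that of every other gene named by rule.

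Among genes of the basement membrane and of integrins, rises outnumbered falls under BRM014 and falls outnumbered rises in DMSO, and 8 of the 24 tested had opposite calls. The list held 29 genes: under BRM014 15 rose and 3 fell (median 0.50), and in DMSO 5 rose and 12 fell (median -0.33). The difference was above 0 for 13 and below 0 for 2, with 9 to 14 above 0 when 1 library was left out. Without BRM014 6 h replicate 1, 9 members rose. Itga2, the collagen-binding integrin alpha 2, measured 21.7 and 19.2 CPM at 6 h and 43.7 and 46.3 CPM at 30 h of BRM014. In DMSO it measured 59.1 and 54.7 CPM at 6 h and 22.4 and 26.4 CPM at 30 h, so the order of the times was the reverse (difference 2.36, SE 0.17, adjusted p = 1.4e-05).

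The collagen IV chains, which form the network of the basement membrane, rose together. Col4a1 went from 345 and 340 CPM to 564 and 621 CPM (0.79, SE 0.09) and Col4a2 from 213 and 208 CPM to 321 and 378 CPM (0.73, SE 0.10). Their differences from DMSO were 1.02 (SE 0.13) and 1.02 (SE 0.14). The 30 h libraries of BRM014 lay above all vehicle libraries for both chains. Of the 95 genes with opposite calls, 8 belonged to this list: beside Itga2 and Col4a2 these included Itga3, Itga5, Lama5, Lamb1 and Hspg2, named after their values were seen. The fall of Col4a2 in DMSO rested on single libraries. It lost its call without either 6 h library of either arm or without DMSO 30 h replicate 2 (-0.354 to -0.215). Lamb1, the laminin beta 1 chain, went from 42.4 and 44.5 CPM to 59.0 and 70.4 CPM under BRM014 and from 44.2 and 40.6 CPM to 20.6 and 17.8 CPM in DMSO. Members that fell were Itgb7, above, the shared integrin chain Itgb1 (-0.50, SE 0.08, and -0.73 in DMSO) and the laminin 332 chain Lamb3 (-0.26, SE 0.09, adjusted p = 0.043). Lamb3 lost its call without any 1 of the 4 BRM014 libraries.

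**Figure D3:**
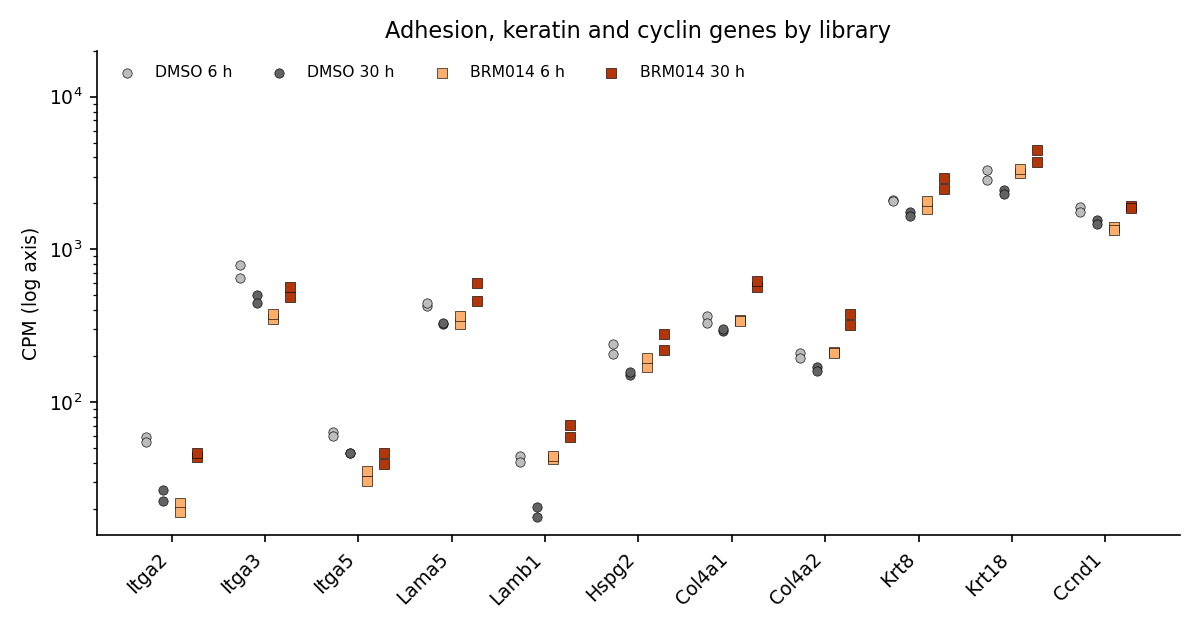
Level of 7 basement membrane and integrin genes with opposite calls, of Col4a1, and of Krt8, Krt18 and Ccnd1, in CPM on a log axis, 1 point per library. In each gene the DMSO circles step down from 6 h (light) to 30 h (dark) and the BRM014 squares step up. The genes were picked for this figure with their values known, so the shared pattern follows from the choice. For Col4a1 the step in DMSO did not pass the test (adjusted p = 0.065). For Col4a2 and Krt8 it lost its call on leaving out some single libraries.

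Among epithelial junction and identity genes 25 of 36 were tested, 13 rose and 3 fell under BRM014 (median 0.49), against 9 and 5 in DMSO (median 0.13). Without BRM014 6 h replicate 1, 7 rose and 1 fell, and 1 fell also without BRM014 6 h replicate 2 or BRM014 30 h replicate 2. Cdh1, E-cadherin, went from 265 and 290 CPM to 524 and 632 CPM (1.06, SE 0.13), above the 309 and 416 CPM of DMSO at 30 h. The epithelial transcription factor Elf3 rose by 1.70 (SE 0.21) and keratin 19 (Krt19) by 0.95 (SE 0.14). The pore-forming claudin Cldn2 was low at both BRM014 times, 36.1 and 29.9 CPM and then 25.2 and 18.1 CPM, against 628 to 928 CPM in DMSO. Its fall of 0.62 (SE 0.14) was not called on leaving out BRM014 6 h replicate 1 or BRM014 30 h replicate 2 (adjusted p = 0.07 and 0.058), while the difference of -1.13 (SE 0.19) was called without any 1 library.

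Of 21 luminal and secretory genes 9 were tested, 5 rose and 2 fell, or 1 fell without either BRM014 6 h library or BRM014 30 h replicate 2, against 2 and 3 in DMSO. Krt8 went from 1829 and 2063 CPM to 2500 and 2918 CPM under BRM014 and from 2104 and 2081 CPM to 1756 and 1648 CPM in DMSO (difference 0.78, SE 0.14, adjusted p = 0.0052). Its rise under BRM014, 0.48 (SE 0.10), was not called on leaving out BRM014 6 h replicate 1 (adjusted p = 0.06), when 2 luminal genes rose. The fall of Krt8 in DMSO also rested on single libraries. It lost its call without either 6 h library of either arm or without DMSO 30 h replicate 2 (-0.318 to -0.227). Xdh, xanthine dehydrogenase, rose from 0.462 and 0.682 CPM to 4.12 and 3.49 CPM, and the mucin Muc1 fell from 17.9 and 16.6 CPM to 5.30 and 3.85 CPM with no called change in DMSO (difference -1.86, SE 0.21). Of 16 basal and myoepithelial genes 6 were tested, 1 rose and 3 fell, as many as in DMSO, or 1 fell without BRM014 6 h replicate 1 or BRM014 30 h replicate 2. With so few basal genes tested, these counts do not set that list apart. Mylk, myosin light chain kinase, rose by 1.46 (SE 0.13). Keratin 14 (Krt14) was counted 65 times over both 6 h libraries and 3 times over both 30 h libraries of BRM014, a 6 h to 30 h ratio of 24.9 (95% exact interval 8.16 to 124, counting error only). Its difference from the DMSO change was not called, and the median of the basal list in DMSO was -0.95.

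The list of 23 YAP/TAZ-TEAD genes, all tested, had 6 rises and 3 falls under BRM014 (median 0.06) and 2 rises and 15 falls in DMSO (median -0.53). Over all genes tested 19.6% rose and 16.9% fell under BRM014, so the BRM014 counts alone do not set this list apart. In DMSO 17.2% of all genes tested fell. The difference was above 0 for 10 members and below 0 for none, and above 0 for 5 without DMSO 6 h replicate 1, either BRM014 6 h library or BRM014 30 h replicate 2. The canonical targets Ctgf and Cyr61 fell in both arms. Ctgf went from 166 and 134 CPM to 89.4 and 90.4 CPM, and Cyr61 from 770 and 647 CPM to 441 and 505 CPM. Without BRM014 6 h replicate 1 none of the 3 falls of the list was called (adjusted p = 0.050 for Ctgf and 0.094 for Cyr61), and Cyr61 also lost its call without BRM014 30 h replicate 1 (adjusted p = 0.077). Nuak2, a kinase that feeds back on YAP, rose by 0.77 (SE 0.14), Tead3 by 0.85 (SE 0.18) and the ectonucleotidase Nt5e by 1.51 (SE 0.23).

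Cell cycle genes fell with time under BRM014. All 35 listed genes of G1/S and DNA replication were tested, 32 fell and 0 rose (median -0.70), against 24 and 0 in DMSO (median -0.37). Of 28 mitotic genes 26 fell and 0 rose (median -0.54), against 14 and 0 in DMSO (median -0.28). The difference was called below 0 for 5 replication genes and 3 mitotic genes. The replication calls rested on BRM014 6 h replicate 1. The mitotic calls rested on each of BRM014 6 h replicate 1, BRM014 6 h replicate 2, DMSO 6 h replicate 2 and BRM014 30 h replicate 2. Mcm5, a subunit of the replicative helicase, measured 401 and 385 CPM at 6 h and 195 and 204 CPM at 30 h of BRM014, against 428 and 430 CPM and then 309 and 347 CPM in DMSO. Cdc6 and Orc6, which license origins, fell by 1.05 (SE 0.10) and 1.02 (SE 0.10). The 30 h BRM014 libraries were below all vehicle libraries for these 3 genes.

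The mitotic kinesins Kif23 and Kif20a fell by 0.94 (SE 0.10) and 0.73 (SE 0.10), and cyclin A2 (Ccna2) by 0.71 (SE 0.09). With counts scaled to ribosomal protein genes 13 mitotic genes fell. Of 15 tested D cyclins, CDK inhibitors and pocket proteins (16 listed) 4 rose and 4 fell under BRM014, or 2 fell without BRM014 6 h replicate 1 or BRM014 30 h replicate 2, against 2 and 2 in DMSO. These counts lie not far from the 19.6% higher and 16.9% lower of all genes tested, so they do not set the list apart. CDK inhibitors of the Ink4 family were called in both directions. Cdkn2a (p16 and p19Arf) rose from 35.3 and 35.4 CPM to 85.6 and 96.1 CPM (1.36, SE 0.12) and Cdkn2b (p15) by 1.09 (SE 0.13), while Cdkn2c (p18) fell by 0.72 (SE 0.11). Cyclin D2 (Ccnd2) went from 133 and 226 CPM to 379 and 421 CPM, above the 49.2 to 59.1 CPM of all vehicle libraries (difference 1.22, SE 0.26). Leaving out DMSO 6 h replicate 2 or BRM014 30 h replicate 2 ended that call (adjusted p = 0.061 and 0.066). Cdkn1a (p21), named after its values were seen, did not pass the test (0.10, SE 0.23).

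Promoter stretches of 3 cell cycle genes are shown because they carry letters of elements known from such promoters: CCAAT boxes in all 3, the cell cycle homology region (CHR, TTTGAA) in Cdc20, and an E2F core (TTTGGCGC) in Mcm5. They run up to the base before the RefSeq start in GRCm38.p6, for Cdc20 at chr4:118437344-118437493 (minus strand), for Ccnb1 at chr13:100786487-100786636 (minus strand) and for Mcm5 at chr8:75109359-75109508 (plus strand). Capitals mark matches on either strand.
Cdc20: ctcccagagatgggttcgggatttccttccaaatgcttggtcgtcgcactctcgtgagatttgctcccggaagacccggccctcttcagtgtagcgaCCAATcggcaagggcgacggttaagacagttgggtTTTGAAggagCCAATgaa
Ccnb1: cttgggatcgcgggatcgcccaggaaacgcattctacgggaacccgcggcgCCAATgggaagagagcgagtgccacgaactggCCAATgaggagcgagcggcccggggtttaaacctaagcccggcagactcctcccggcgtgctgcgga
Mcm5: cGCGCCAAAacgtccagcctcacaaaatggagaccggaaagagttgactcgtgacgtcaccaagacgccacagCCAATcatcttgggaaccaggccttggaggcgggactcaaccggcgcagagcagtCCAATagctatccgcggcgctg
The CHR letters were found in 76.0% of 25 windows of the mitotic list and in 11.8% of the windows of all tested genes. CCAAT was found in 80.0% and 38.1%, and the E2F core in 17.6% of 34 windows of the replication list and in 0.989% of all. Both lists gather cell cycle genes, so these shares describe their members and not the change under BRM014. Cdc20, the activator of the anaphase-promoting complex, fell from 248 and 216 CPM to 138 and 146 CPM, and Ccnb1, cyclin B1, from 131 and 110 CPM to 81.3 and 82.6 CPM.

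Transcripts of most nucleolar ribosome biogenesis genes fell in both arms. Of 30 such genes 28 fell and 0 rose under BRM014 (median -0.56) and 29 fell in DMSO (median -0.77), with no called difference. Nop58, a box C/D snoRNP core protein, went from 577 and 489 CPM to 288 and 272 CPM, and from 581 and 518 CPM to 314 and 310 CPM in DMSO. Gnl3 (nucleostemin) fell by 0.83 (SE 0.10) and Tsr1, a small-subunit assembly factor, by 0.76 (SE 0.09). With counts scaled to ribosomal protein genes 15 of the list fell. Of 32 ribosomal protein genes 7 fell and 0 rose under BRM014 (median -0.21, and 0.05 with that scaling), or 4 without BRM014 6 h replicate 2. That scaling is set by these same genes, so their median with it lies near 0 by construction and does not test their fall. Their reads can be shared with processed pseudogenes, so these values are uncertain.

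**Figure D4:**
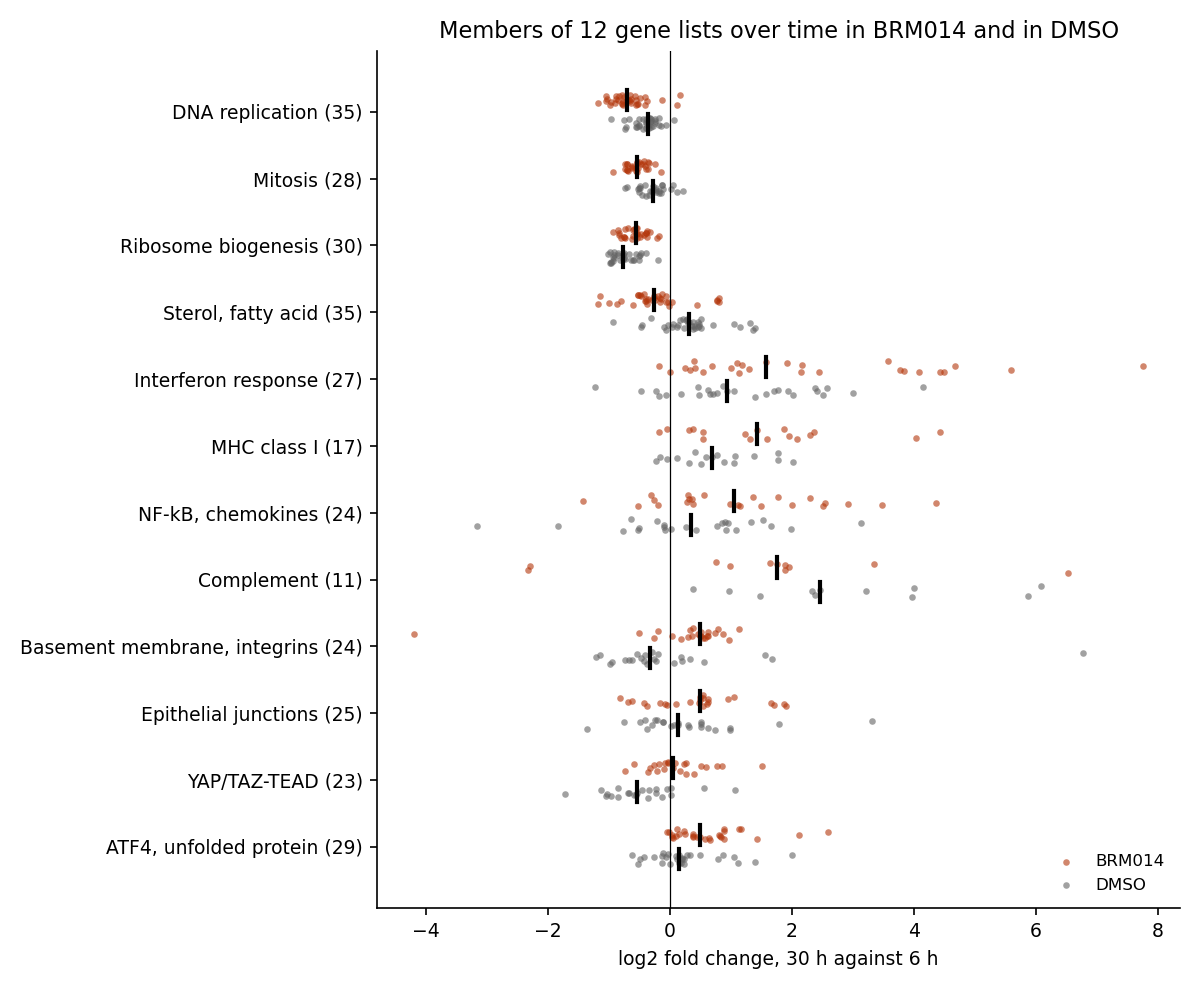
Change from 6 h to 30 h (log2 fold change) of the tested members of 12 gene lists, under BRM014 (orange, upper row of each pair) and in DMSO (grey, lower row); each point is 1 gene, the black bar is the list's median and the number tested stands in brackets. The medians of both arms lie on the same side of 0 for replication, mitosis, ribosome biogenesis, interferon, MHC class I, NF-kB, complement, epithelial and ATF4 genes, and on opposite sides for sterol, basement membrane and YAP/TAZ-TEAD genes.

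Among lipid synthesis genes, falls outnumbered rises under BRM014 and rises outnumbered falls in DMSO, but 2 had opposite calls. Of 35 sterol and fatty acid genes 5 rose and 8 fell under BRM014 (median -0.26), whereas 14 rose and 2 fell in DMSO (median 0.31). Over all genes tested, 19.6% rose and 16.9% fell under BRM014, and 18.0% and 17.2% in DMSO. The counts under BRM014 alone therefore do not set this list apart. The difference was below 0 for 8 and above 0 for none. This list was the most sensitive to single libraries: 3 members fell without BRM014 30 h replicate 1 and 16 without either DMSO 30 h library, and the differences below 0 numbered 23 without DMSO 30 h replicate 1 and 2 without DMSO 6 h replicate 2 or either BRM014 6 h library. Without BRM014 6 h replicate 1 or BRM014 30 h replicate 2, 3 members rose. Fasn, fatty acid synthase, went from 542 and 515 CPM to 182 and 346 CPM, and its replicates at 30 h lay further apart than those at 6 h. Idi1, an isoprenoid isomerase, fell by 0.87 (SE 0.18). The difference of Idi1, -0.93 (SE 0.25), was not called on leaving out any 1 library other than DMSO 30 h replicate 1 or BRM014 30 h replicate 2 (adjusted p = 0.0912 to 0.155). Pmvk, Tm7sf2 and Scd2 rose, by 0.81 (SE 0.12), 0.80 (SE 0.15) and 0.77 (SE 0.15).

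In the glycolysis and hypoxia list 29 of 31 genes were tested, 13 rose and 5 fell (median 0.23), against 15 and 3 in DMSO (median 0.41), and 2 fell without BRM014 6 h replicate 2. The glucose transporter Slc2a1 rose by 0.95 (SE 0.12) and Bnip3, a hypoxia-induced mitophagy receptor, by 1.33 (SE 0.18). Ldha, lactate dehydrogenase A, went from 1081 and 1090 CPM to 800 and 840 CPM under BRM014 and from 1511 and 1491 CPM to 2070 and 1908 CPM in DMSO (difference -0.81, SE 0.12, adjusted p = 0.0015). Gapdh and Eno1 had few counts for glycolytic enzymes, at most 24.2 and 11.9 CPM. Near-identical copies in the genome may take or void their reads, so their falls are uncertain. Of 28 oxidative phosphorylation genes 1 fell and 0 rose under BRM014 (median -0.10, and 0.15 with ribosomal scaling), while 13 rose in DMSO (median 0.25). The difference was below 0 for 2, and for none without either 6 h library of either arm or without BRM014 30 h replicate 2. Among them was Cyc1, cytochrome c1, whose fall of 0.35 (SE 0.09) lost its call without BRM014 6 h replicate 2 (adjusted p = 0.064).

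All 29 genes of the ATF4 and unfolded protein list were tested, 18 rose and 0 fell (median 0.49), against 9 and 4 in DMSO (median 0.16). The difference was above 0 for 10, and for 2 without DMSO 6 h replicate 1 or BRM014 6 h replicate 2. Ddit4, an mTORC1 inhibitor, went from 56.2 and 58.1 CPM to 229 and 268 CPM (2.12, SE 0.11), and in DMSO from 40.9 and 34.4 CPM to 154 and 147 CPM. Herpud1, of endoplasmic reticulum-associated degradation, rose by 0.80 (SE 0.10) and by 0.87 (SE 0.10) in DMSO. Of 23 tested NRF2 and glutathione genes (24 listed) 9 rose and 0 fell (median 0.20), against 11 and 3 in DMSO (median 0.31). Gsta4, a glutathione transferase, went from 168 and 155 CPM to 794 and 861 CPM, which was 1.06 (SE 0.15, adjusted p = 0.00099) above its rise in DMSO. The ferritin light chain Ftl1 rose by 0.78 (SE 0.10).

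Of 27 p53 targets 11 rose and 0 fell (median 0.28), or 5 without BRM014 6 h replicate 2, against 4 rises and 5 falls in DMSO. Gadd45a measured 22.99 and 21.57 CPM at 6 h and 44.3 and 44.9 CPM at 30 h of BRM014, and 11.4 to 14.9 CPM over the vehicle libraries (difference 1.10, SE 0.20, adjusted p = 0.005). Trp53inp1 rose by 1.77 (SE 0.17) and Bbc3 (PUMA) by 1.15 (SE 0.17), both also in DMSO. Of 23 heat shock chaperone genes 6 rose and 11 fell, or 3 fell without BRM014 6 h replicate 1, against 2 and 6 in DMSO. The small heat shock genes Hspb1 and Cryab rose, by 1.62 (SE 0.23) and 1.00 (SE 0.17), whereas the large chaperones Hsph1 and Hspd1 fell, by 0.76 (SE 0.11) and 0.61 (SE 0.09). Lysosome and autophagy genes rose in 17 of 32 tested with 0 falls (16 rises and 1 fall in DMSO), or in 6 without BRM014 6 h replicate 1, with Wipi1, a phosphoinositide reader of autophagy, at 0.98 (SE 0.13). The 10 tested of 20 replication-dependent histones had 5 rises and 0 falls (median 0.96), against none in DMSO, or 2 rises without BRM014 6 h replicate 2 or BRM014 30 h replicate 1. The histone median in DMSO was 0.29. Only 2 of the 10 tested histones had a called difference from DMSO. Those calls rested on DMSO 6 h replicate 1 and on BRM014 6 h replicate 2. Hist1h1c, which encodes a linker histone, went from 30.3 and 24.7 CPM to 84.4 and 74.7 CPM (1.53, SE 0.18).

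Signalling lists were mixed, and several of their counts lie near the 19.6% higher and 16.9% lower of all genes tested, so they do not set these lists apart. In the TGF-beta and BMP list 26 of 30 genes were tested, 6 rose and 4 fell, against 5 and 9 in DMSO (median under BRM014 -0.01, which lies above 0 with library totals or ribosomal scaling). The ligand Bmp4 rose from 4.82 and 4.95 CPM to 16.6 and 15.2 CPM, and the receptor Tgfbr2 by 0.78 (SE 0.12). The BMP targets Id1, Id2 and Id3 fell: Id1 went from 187 and 204 CPM to 89.9 and 103 CPM with no called change in DMSO (difference -0.96, SE 0.14, adjusted p = 0.001). Id3 fell by 0.65 (SE 0.15), a call lost without BRM014 6 h replicate 2 (adjusted p = 0.078). Of 32 tested AP-1 and immediate early genes (34 listed) 5 rose and 5 fell (median 0.02), against 7 and 14 in DMSO, and 3 rose without BRM014 6 h replicate 2 and 2 fell without BRM014 30 h replicate 2. Atf3 rose from 29.5 and 30.6 CPM to 59.0 and 68.4 CPM, above all vehicle libraries (11.6 to 16.5 CPM), and Fosb fell by 1.27 (SE 0.23).

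Of 23 tested mesenchymal and interstitial matrix genes (32 listed) 4 rose and 7 fell, the same counts as in DMSO, and 2 rose without BRM014 30 h replicate 1 or either BRM014 6 h library. S100a4, a calcium-binding protein often used as a mesenchymal marker, went from 411 and 424 CPM to 112 and 91.2 CPM and from 775 and 815 CPM to 1029 and 969 CPM in DMSO (difference -2.37, SE 0.15, adjusted p = 3.2e-06). Vimentin (Vim) fell in both arms, by 0.54 (SE 0.09) under BRM014, and the membrane collagenase Mmp14 rose by 0.80 (SE 0.11). In the Wnt list 18 of 32 genes were tested, 4 rose and 1 fell, against 5 and 1 in DMSO, or 2 rose without BRM014 6 h replicate 1, and the fall, of Wnt7a, rested on both BRM014 6 h libraries and on BRM014 30 h replicate 1; the receptor Fzd2 rose by 1.07 (SE 0.14) and the ligand Wnt4 by 1.43 (SE 0.23). In the Notch list 14 of 20 were tested, 4 rose and 3 fell, against 4 and 2 in DMSO. The ligand Jag1 fell by 0.92 (SE 0.13) in BRM014 and by 0.91 (SE 0.13) in DMSO, and the receptor Notch1 rose by 0.82 (SE 0.17). Of 17 tested clock genes (19 listed) 4 rose and 2 fell, against 2 and 4 in DMSO, and without BRM014 6 h replicate 2 the counts were 1 and 0, and without BRM014 6 h replicate 1 both were 1.

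The targets of the inhibitor were still transcribed. Smarca4 (BRG1) measured 442 and 455 CPM at 6 h and 372 and 407 CPM at 30 h of BRM014, a change of -0.20 (SE 0.09, adjusted p = 0.10) that was 0.05 with counts scaled to ribosomal protein genes. Smarca2 (BRM) measured 3.54 and 2.77 CPM and then 7.92 and 7.04 CPM, a rise of 1.25 (SE 0.22) beside a rise of 1.06 (SE 0.23) in DMSO, with no called difference. BRM014 acts on the proteins, so these levels do not check its action. Of the 26 tested genes of 28 for SWI/SNF subunits 2 rose and 9 fell (median -0.21), or 1 rose and 3 fell without BRM014 6 h replicate 1, against 1 and 8 in DMSO (median -0.12). Brd9, of the non-canonical complex, went from 67.1 and 66.8 CPM to 42.0 and 44.6 CPM, and Bcl7a and Smarcd1 fell by 0.64 (SE 0.13) and 0.45 (SE 0.10). With counts scaled to ribosomal protein genes the median of the list lay above 0.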

How the data were processed

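RNA-seq was measured in 8 libraries of NMuMG cells, 2 in each of 4 groups. Per the labels' protocols, total RNA was made into stranded libraries and sequenced as single reads. The deposited values were raw counts per gene with Entrez identifiers and symbols, which the authors had not normalized as far as the values show. The submitters' processing notes name mm9 as the build and list featureCounts, Subread and SAMtools 0.1.19 among the tools. Which annotation and strand option the counting used is not given in the sources used here, so antisense or overlapping genes may share reads.

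The counts were fitted with edgeR 4.0.16 (R 4.3.3): TMM scaling, a filter by filterByExpr, 4 group means over 8 libraries, which left 4 residual degrees of freedom, and quasi-likelihood F-tests of BRM014 30 h against 6 h, of DMSO 30 h against 6 h and of their difference, with Benjamini-Hochberg adjustment over the 11835 genes tested. The biological coefficient of variation was 9.3%. The remaining 9405 genes had too few counts, and a gene that passed the filter through 1 group could only differ towards that group. Alternatives used DESeq2 1.42.0, limma 3.58.1, other scalings and filters, thinned counts, a test against a fold of 1.5, a replicate block and the removal of each library.

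Named were Smarca4 and Smarca2, the 10 largest called rises and falls under BRM014 with non-overlapping libraries and a mean level of 2 or more in log2 CPM, the 6 largest called differences each way with that mean over all 8 libraries (both leaving out predicted genes, clone names, LOC symbols, miRNAs and snoRNAs), and per list the 3 smallest p each way. The 30 gene lists and 6 marker lists held 860 entries in the table, of 861. Some members, counted in their lists, are not reported here by name. Members and lists were chosen with earlier results of these data known. Promoter sequences are from RefSeq (GRCm38.p6), matched by Entrez identifier for 9420 of the genes tested.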

Additional observations from a re-analysis of the deposited data

Results flagged for a closer look

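Of the 151 genes named by rule, 64 changed with time to a different degree under BRM014 than in DMSO by the test of the difference itself (edgeR, adjusted p below 0.05). The values below are the BRM014 change minus the DMSO change on the log2 scale. These genes were partly chosen for this difference, so their share says nothing about all genes.

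The difference was above 0 for 36 genes. The largest values were Tnfaip2 (3.14), Gbp2 (2.78), Adam8 (2.71), Slc7a11 (2.60), Ccl2 (2.58), Flnc (2.55), Dhrs9 (2.38), Itga2 (2.36), Lce1g (2.15), Parp14 (2.14), Wnt7a (2.04) and Birc3 (1.58). Values between 1 and 2 were Irf1 (1.46), Cryab (1.28), Hist1h2bc (1.25), Ccnd2 (1.22), Neurl3 (1.18), Hist1h1c (1.16), Atf3 (1.15), Gadd45a (1.10), Gsta4 (1.06), Col4a1 (1.02) and Col4a2 (1.02). Values below 1 were H2-D1 (0.98), Tead3 (0.98), Bmf (0.97), H2-K1 (0.90), Cxcl5 (0.85), Wipi1 (0.85), Nuak2 (0.82), Krt8 (0.78), Bmp4 (0.76), Cdkn2a (0.71), Tgfbr2 (0.70), Lamb3 (0.68) and Mmp14 (0.59).

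The difference was below 0 for 28 genes. The lowest values were Cfb (-5.52), Itgb7 (-3.53), Tnnt2 (-3.52), Mmp13 (-3.46), Habp2 (-3.44), Pilra (-3.43), Ces2g (-3.32), Prl2c2 (-2.61), Lgals2 (-2.60), S100g (-2.51), Prl2c3 (-2.43), S100a4 (-2.37) and Apob (-2.03). Values nearer 0 included Muc1 (-1.86), Id2 (-1.82), Fam19a5 (-1.68), Btg2 (-1.25), Bnip3 (-1.14), Cldn2 (-1.13), Id1 (-0.96), Idi1 (-0.93), Id3 (-0.91), Ldha (-0.81), Cdkn2c (-0.61), Mcm5 (-0.59), Hsph1 (-0.58) and Cyc1 (-0.51).

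Without any 1 of the 8 libraries 34 of the 64 kept their call. The other 30 lost it in at least 1 such test, among them Apob, Atf3, Birc3, Bmf, Bmp4, Bnip3, Ccnd2, Cdkn2a, Cdkn2c, Cryab, Cxcl5, Cyc1, Gbp2, Hist1h1c, Hist1h2bc, Hsph1, Id3, Idi1, Lamb3, Lce1g, Mcm5, Mmp14, Neurl3, Nuak2, Prl2c3, Tead3, Tgfbr2, Wipi1 and Wnt7a.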

How the results depend on the processing

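Of 150 genes named by rule and called between 6 h and 30 h of BRM014, none reversed, 119 kept their call without any 1 library, 24 lost it with ribosomal protein scaling and 70 when tested against a fold of 1.5. Among genes that missed the threshold, Smarca4 turned from -0.20 to 0.0496 with ribosomal protein scaling.

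Leaving out 1 library gave 1229 to 2492 genes higher and 998 to 2222 lower under BRM014, 1293 to 2160 and 1038 to 2097 in DMSO, and 200 to 533 above 0 and 130 to 388 below 0 for the difference. Opposite calls numbered 43 to 97 for higher under BRM014 and lower in DMSO, and 31 to 63 for the reverse. A group left with 1 library is assumed to vary like the others. Ribosomal protein scaling moved the median of all genes by 0.26 and gave 4068 higher and 534 lower under BRM014, 3920 and 646 in DMSO, 143 differences below 0, and 1176 and 109 changes of at least 2-fold under BRM014. Against a fold of 1.5, counts were 529 and 130 under BRM014 (490 and 99 of at least 2-fold), 396 and 169 in DMSO, and 84 and 73 for the difference, with 1 and 5 opposite calls. Without a filter on low counts the difference gave 719 and 590, with 89 genes lower under BRM014 and higher in DMSO.

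The replicate numbers name samples and are not said to pair them. With a replicate block the difference gave 726 above 0 and 511 below 0, and 80 genes were lower under BRM014 and higher in DMSO. The correlations of same-numbered deviations were 0.01 to 0.20.

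With 2 libraries a group and a median SE of 0.13 for the BRM014 change and 0.18 for the difference, smaller changes were often not detectable at this depth.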
